A study of Mus musculus with 12 samples.

Results

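The nuclei described here were chosen by their counts of 3 genes known as markers of layer 6b and subplate neurons, Nxph4, Moxd1 and Cplx3. A nucleus was taken when these genes together gave at least 2 unique molecular identifiers (UMIs, the tags that mark single captured RNA molecules) and when neither Gad1 nor Gad2, the enzymes of GABA synthesis, gave any. Of the 101766 nuclei that passed a filter of 800 to 6000 UMIs, 300 to 3000 genes and at most 1% mitochondrial UMIs, 91 met this rule (0.0894%), 49 from wild-type (WT) and 42 from heterozygous (Het) animals. The nuclei came from mice at postnatal day 1, from forebrain according to the labels, although the study's methods also name prefrontal cortex once. All animals belonged to the MYT1L S710fsX line on a C57BL/6J background, and Het animals carried this frameshift allele on 1 of their copies of Myt1l while WT animals carried none. Each of the 12 libraries came from 1 animal, with 5 male and 3 female WT and 3 male and 1 female Het libraries, which are named below by genotype, sex and the number in their label.

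Layer 6b is the deepest layer of the cerebral cortex. Many of its neurons are thought to persist from the subplate, a zone of early-born neurons below the cortical plate that receives some of the first inputs from the thalamus. Myt1l encodes a zinc finger transcription factor of neurons. Among the genes of the rule, Nxph4 encodes a neurexophilin, a secreted partner of the synaptic neurexins, Cplx3 encodes a complexin, which acts in the fusion of synaptic vesicles, and Moxd1 encodes a monooxygenase related to dopamine beta-hydroxylase. In mm10 coordinates with GENCODE M21 gene models, Nxph4 lies at chr10:127525473-127534559 on the minus strand, Moxd1 at chr10:24223517-24302790 on the plus strand and Cplx3 at chr9:57599992-57606281 on the minus strand. No other gene model overlaps any of them.

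The label of layer 6b and subplate neurons did not hold for most of the chosen nuclei. When they were clustered without the rule genes, 24 formed a group with raised layer 6b and layer 6 markers, and the other 67 (73.6%) fell into groups led by upper-layer genes, by oligodendrocyte-lineage genes or by Cped1 and Dach1, the last of which no marker list named. The set is therefore called the chosen nuclei here. No barcode occurred in more than 1 library. A library held between 4797 and 11746 filtered nuclei and between 3 and 12 chosen nuclei, and the UMIs summed over its chosen nuclei ranged from 8361 to 44284. Chosen nuclei had a median of 3143 UMIs and 1640 genes, against 2001 UMIs and 1195 genes over all filtered nuclei. Of the 5912 barcodes marked as likely doublets, 2 were chosen nuclei, while the median doublet score was 0.467 in chosen nuclei and 0.535 in the group of 24, against 0.286 over all nuclei. The part of doublets in the choice was not tested beyond leaving out the marked ones.

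Moxd1 carried the choice. It was detected in 86 of the 91 chosen nuclei with 188 UMIs in all, and 70 nuclei held exactly 2 of its UMIs. Nxph4 was detected in 9 nuclei with 13 UMIs, and Cplx3 in 4 nuclei with 5 UMIs. Moxd1 by itself reached 2 UMIs in 82 nuclei, in 80 nuclei it was the only rule gene detected, and 8 nuclei held more than 1 of the 3 genes. Without Moxd1, only 6 of all filtered nuclei would have met the rule.

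These values chose the nuclei and are given as a description. The sum over the 3 genes was 2 in 76 nuclei, 3 in 11, 4 in 2, 5 in 1 and 8 in 1. Just outside the threshold were 762 nuclei without Gad1 or Gad2 and with a sum of 1, and a further 50 nuclei reached the sum but held a Gad1 or Gad2 UMI. Nr4a2, the transcription factor also called Nurr1 and a layer 6b marker outside the rule, was detected in 6.43% of the nuclei with a sum of 1, in 11.8% of those with 2 and in 13.3% of the 15 with 3 or more. Kcnab1, a potassium channel subunit, was detected in 29.5%, 43.4% and 53.3% of the same sets. Pdgfra, the receptor that marks oligodendrocyte precursors, was detected in 18.8%, 21.1% and 26.7%. Cdh18 was detected in 35.2%, 47.4% and 53.3%, and Lpar1 in 7.48%, 9.21% and 20%. Other genes followed no single direction, with Tmem163 in 19.0%, 27.6% and 26.7%, Pappa2 in 11.9%, 21.1% and 20%, Rorb in 33.3%, 40.8% and 20%, and Ccn2 in 3.15%, 0% and 6.67% of these sets. Median UMIs per nucleus were 2624, 3104 and 3269.

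**Figure D1:**
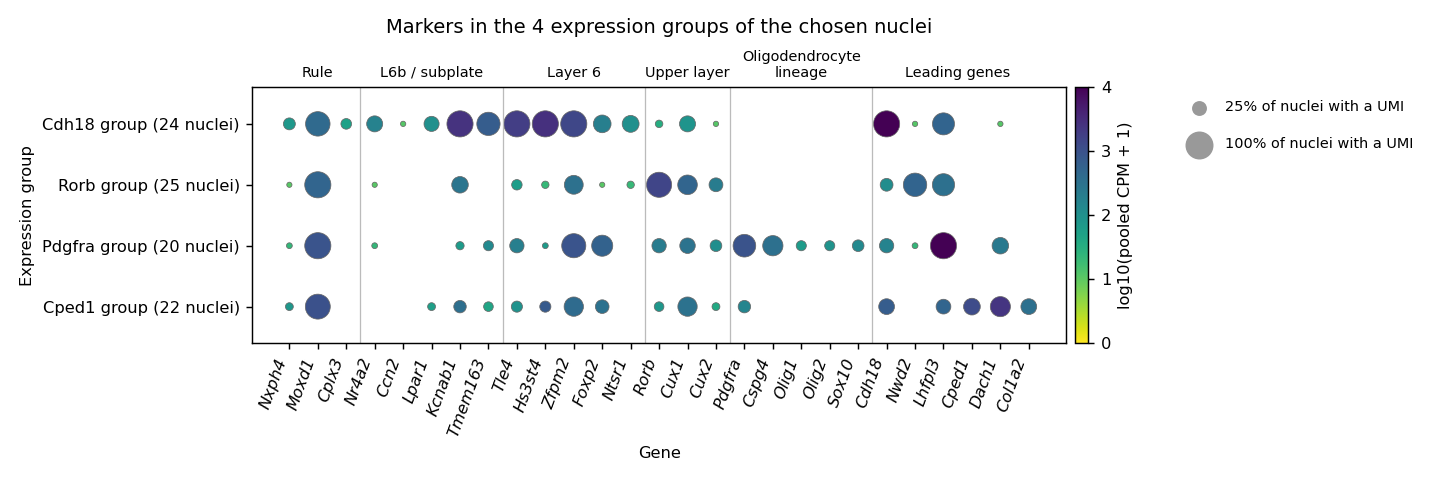
Markers (columns) in the 4 groups of chosen nuclei (rows). Dot size gives the share of nuclei with a UMI and colour the log10 of pooled CPM (UMIs of a gene scaled to a common total per group) plus 1. Nr4a2, Kcnab1 and Tmem163 sit mainly in the Cdh18 group, Pdgfra and Cspg4 in the Pdgfra group, and Moxd1 is present in all 4.

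Leiden clustering of the 91 nuclei gave 4 groups, which are called here by a leading gene. A marker was counted as raised when its level in CPM, the UMIs of a gene scaled to a common total, was at least 2 times the sum of 10 CPM and the level in the other chosen nuclei, with a UMI in at least 3 nuclei. Since the groups were formed from these counts, their genes describe them and were not tested.

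The Cdh18 group held 24 nuclei with a median of 3892 UMIs. Cdh18, a cadherin, was detected in all 24 of them at 9722 CPM, against 274 CPM in the other chosen nuclei. Among the 5 layer 6b and subplate markers outside the rule, 4 were raised. Kcnab1 was detected in 24 nuclei, Tmem163, a zinc transporter of vesicles, in 19, Nr4a2 in 9 and Lpar1, a receptor for lysophosphatidic acid, in 8. Ccn2, a secreted matrix-associated protein that marks layer 6b in the mouse, was detected in 1 nucleus. Of 8 markers of layer 6 corticothalamic neurons, 4 were raised as well (Tle4, Hs3st4, Zfpm2 and Ntsr1), and the 10 leading genes held 2 markers of each list (Tmem163 and Kcnab1, Tle4 and Hs3st4). The group could thus not be assigned to layer 6b rather than to layer 6 by these lists. It held all 4 nuclei with Cplx3, 5 of the 9 with Nxph4 and 9 of the 11 with Nr4a2. Pappa2, a protease of insulin-like growth factor binding proteins, was detected in 18 of its nuclei and in 1 of the other 67. Foxp2, a transcription factor of layer 6, was detected in 11 at 194 CPM, below the 1643 CPM of layer-6-type nuclei (a set with at least 3 UMIs of Foxp2 and Tle4 together), which Foxp2 itself had helped to select.

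The Rorb group held 25 nuclei with a median of 3926 UMIs and was upper-layer-like. Rorb, a nuclear receptor of layer 4 neurons, was detected in 23 of its nuclei, Nwd2 in 20 and Cux2, a homeobox gene of the upper layers, in 7. Of 8 upper-layer markers, 5 were raised. Of 7 markers of layer 5 extratelencephalic neurons, 3 were raised as well (Pou3f1, Ldb2 and Bcl6), and of 7 claustrum and endopiriform markers, 2 (Ntng2 and Gnb4). Nr4a2 was detected in 1 nucleus, and neither Tmem163 nor Lpar1 was detected in any. Moxd1 was detected in all 25, Nxph4 in 1 and Cplx3 in none.

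The Pdgfra group held 20 nuclei with a median of 2083 UMIs and was oligodendrocyte-lineage-like. All 5 markers of that lineage were raised. Pdgfra was detected in 15 of its nuclei, Cspg4, the NG2 proteoglycan of oligodendrocyte precursors, in 12, Sox10 in 4, Olig1 in 3 and Olig2 in 3. Lhfpl3 was detected in all 20 at 10579 CPM, and Myt1, a paralogue of Myt1l, in 18. A UMI of any of 5 cortical excitatory genes, Neurod2, Neurod6, Slc17a7 and Tbr1 among them, was found in 6 of these nuclei, against 23 of 24 in the Cdh18 group and 25 of 25 in the Rorb group.

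The Cped1 group held 22 nuclei with a median of 2035 UMIs and stayed unnamed, since no marker list gave it 3 raised markers with 1 among its 10 leading genes. The diencephalic glutamatergic list had 3 of 8 raised (Tcf7l2, Zic1 and Zic4), none of them leading. Dach1, a transcription factor, was detected in 13 of its nuclei, Cped1 in 9, Lama2, a laminin chain, in 9 and Col1a2, a chain of type I collagen, in 8. Cped1 and Col1a2 were detected in none of the other chosen nuclei. Excitatory genes were found in 3 of the 22 nuclei, Nr4a2 in none, and the highest sums of the rule genes (8 and 5 UMIs, all Moxd1) were here.

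**Figure D2:**
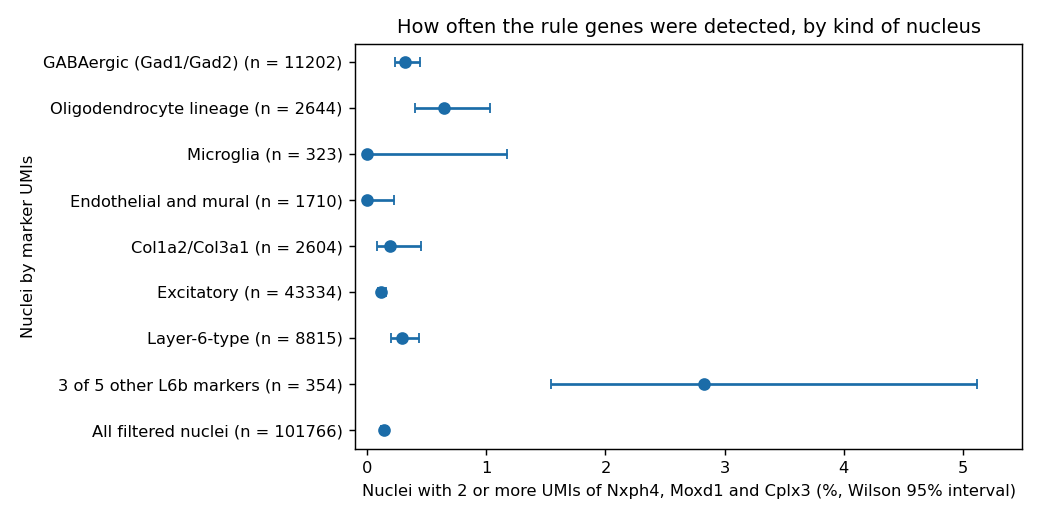
Share of nuclei (horizontal axis, %) with at least 2 UMIs of Nxph4, Moxd1 and Cplx3 together, for nuclei sorted by their marker UMIs (vertical axis), with Wilson 95% intervals. The share was 0.118% in excitatory nuclei, 0.643% in oligodendrocyte-lineage nuclei and 2.82% in nuclei with 3 of 5 other layer 6b markers. Depth differed between these kinds of nuclei and was not adjusted for.

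How often the rule genes reached 2 UMIs was compared between kinds of nuclei of the whole series, with intervals that cover counting error only. Among 43334 excitatory nuclei (at least 2 UMIs of the 5 excitatory genes, no Gad1 or Gad2) the share was 0.118% (95% Wilson interval 0.0895 to 0.155) at a median of 2496 UMIs. Among 11202 GABAergic nuclei with at least 2 Gad1 or Gad2 UMIs, which the rule bars, it was 0.321% (0.232 to 0.445) at a median of 2564.5 UMIs. The GABAergic share was thus above the excitatory one at nearly the same depth. Nuclei were pooled over libraries, so the spread between animals is not in these intervals and the difference was not tested. Nuclei with at least 2 UMIs of oligodendrocyte-lineage markers had the rule genes at 0.643% (0.402 to 1.03) at the lower median of 1736 UMIs, and Moxd1 alone was detected in 5.18% of them. Layer-6-type nuclei stood at 0.295% (0.201 to 0.432), within the GABAergic interval. Nuclei with at least 2 UMIs of the collagen genes Col1a2 and Col3a1 stood at 0.192% (5 of 2604, interval 0.0820 to 0.449), with Moxd1 detected in 1.11% of them. No microglial nucleus of 323 reached 2 UMIs, which allows a share of up to 0.929% by the limit of 3 counts (upper Wilson bound 1.18%), and none of 1710 endothelial and mural nuclei did, which allows up to 0.175% (upper Wilson bound 0.224%).

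The share was highest in nuclei with other layer 6b markers, which also had the highest median depth of the kinds compared. Depth was not adjusted for, and its part in these shares was not tested. A total of 354 filtered nuclei without Gad1 or Gad2 held at least 3 of Nr4a2, Ccn2, Lpar1, Kcnab1 and Tmem163. Of these, 2.82% (1.54 to 5.12) reached 2 UMIs of the rule genes, at a median of 3978 UMIs. Moxd1 was detected in 10.5% of them, Nxph4 in 3.11% and Cplx3 in 1.98%. Both ways of choosing shared 10 nuclei, which were 2.82% of the 354 and 10.99% of the 91, and all 10 were in the Cdh18 group. Between genotypes, edgeR called 0.917% of the 2289 genes tested in the 354 nuclei, which are described among the other observations.

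Beyond the rule, levels in the chosen nuclei were compared with other excitatory nuclei as a description, since the rule used that contrast. The 15 genes with the highest fold among 6432 genes at 20 CPM or more included, in order of fold, Cp, Pdgfra, Gm38505, Tinag, 4921539H07Rik, Dcn, Col19a1, Cldn11, Frem1, Cdh19, Cped1, Npas1, F3 and Sox10. Their folds ran from 34.1 to 17.3. Several rested on few UMIs, such as Sox10 on 6 in 4 nuclei, F3 on 7 in 3 and 4921539H07Rik on 7 in 4. Gm38505, Tinag and Cldn11 had 9 UMIs each, while Pdgfra had 52 and Col19a1 had 144. Cp, the copper carrier ceruloplasmin, stood at 119 against 3.47 CPM with 7 of its 9 nuclei in the Cped1 group, and Pdgfra at 176 against 7.20 CPM with 15 of its 20 nuclei in the Pdgfra group. Col19a1, a fibril-associated collagen, was the gene among them found in all 12 libraries, at 488 against 26.0 CPM, in 23 of the 24 nuclei of the Cdh18 group and 13 of the 20 of the Pdgfra group. Of the layer 6b markers outside the rule, Kcnab1 stood at 1017 against 170 CPM and Tmem163 at 258 against 29.0 CPM, both above other excitatory nuclei in 12 of 12 libraries, and Nr4a2 at 64.3 against 24.6 CPM in 9 of 12. The same list also holds Ccn2 and Lpar1, whose levels are not compared here. Ccn2 was detected in 0 of the 76 nuclei with a rule sum of 2 and in 1 of the 15 with more. Lpar1 was detected in 7 and 3 of them.

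**Figure D3:**
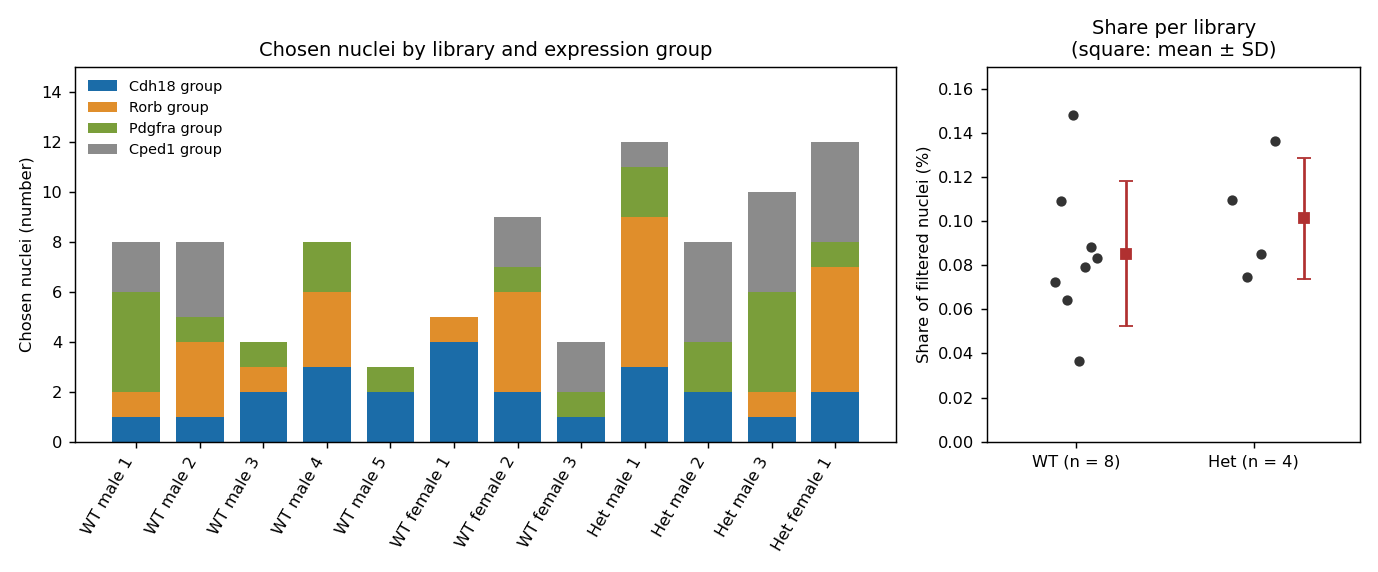
Left, number of chosen nuclei (vertical axis) in each of the 12 libraries (horizontal axis), stacked by group. Right, chosen nuclei as a share of filtered nuclei (%) per library by genotype, with points for libraries and squares for the mean with SD. The 4 Het points, from 0.0746% to 0.136%, lie within the WT range.

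The first question for genotype was whether the chosen nuclei were more or less frequent in Het animals. They made up between 0.0366% and 0.148% of filtered nuclei in the 8 WT libraries, with a median of 0.0812%. The Het libraries held 0.109%, 0.0746%, 0.0851% (males 1 to 3) and 0.136% (female 1). All Het values fell inside the WT range. The mean was 0.0852% ± 0.0329 (SD, n = 8) for WT against 0.101% ± 0.0274 (SD, n = 4) for Het (exact two-sided permutation test over libraries, p = 0.420, adjusted p = 0.578). The smallest p this test can give with 8 and 4 libraries is 0.00404. Adjusted p-values of single measures are Benjamini-Hochberg values over 11 measures, none of which had a raw p under 0.05.

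Taken as a share of chosen and other excitatory nuclei together, the chosen nuclei were 0.194% ± 0.0584 (SD, n = 8) for WT against 0.251% ± 0.0930 (SD, n = 4) for Het (exact permutation test, p = 0.263, adjusted p = 0.541). This base counted all 91 chosen nuclei, of which 51 held at least 2 UMIs of the 5 excitatory genes. With every nucleus thinned to 800 UMIs, the expected share that still met the rule was 0.0132% ± 0.00679 (SD, n = 8) for WT against 0.0166% ± 0.00549 (SD, n = 4) for Het (exact permutation test, p = 0.400, adjusted p = 0.578). The median UMIs per chosen nucleus were 3488 ± 969 (SD, n = 8) and 2873 ± 591 (SD, n = 4) (exact permutation test, p = 0.295, adjusted p = 0.541). None of these tests had a raw p under 0.05. Over all filtered nuclei the median depth was 2056 ± 125 UMIs in WT (n = 8) and 1921 ± 105 UMIs in Het (n = 4), with all 4 Het libraries below the WT mean.

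The makeup of the set by library was uneven, and counts were small. The Cdh18 group was found in all 12 libraries with 1 to 4 nuclei each, 16 in WT and 8 in Het. It made up 12.5% to 80.0% of the chosen nuclei in WT libraries, with a median of 31.2%, and 25.0%, 25.0%, 10.0% and 16.7% in Het males 1 to 3 and Het female 1. All 4 Het values were below the WT mean, and that of Het male 3 was below the lowest WT library. The means were 38.3% ± 25.2 (SD, n = 8) and 19.2% ± 7.26 (SD, n = 4) (exact permutation test, p = 0.202, adjusted p = 0.541). The shares of the 4 groups add up to all chosen nuclei and so are not independent. The Cped1 group took 16.8% ± 19.8 (SD, n = 8) for WT against 32.9% ± 17.8 (SD, n = 4) for Het (exact permutation test, p = 0.202, adjusted p = 0.541). It was absent from 4 WT libraries and present in all 4 Het libraries. The Rorb group took 22.1% ± 17.1 (SD, n = 8) and 25.4% ± 24.2 (SD, n = 4) (exact permutation test, p = 0.796, adjusted p = 0.973), and the Pdgfra group 22.7% ± 15.2 (SD, n = 8) and 22.5% ± 13.5 (SD, n = 4) (exact permutation test, p = 1, adjusted p = 1). Of all UMIs in chosen nuclei, the Cdh18 group supplied 38.5% in WT and 25.9% in Het, and the Cped1 group 12.9% and 24.4%.

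Nr4a2 was detected in 9 of 49 WT and 2 of 42 Het chosen nuclei. Per WT library the share ran from 0% (male 5) to 40.0% (female 1), and in the Het libraries it was 0%, 0%, 10.0% and 8.33%. Every Het value lay below the WT mean, although 1 WT library stood at 0% too. With nuclei thinned to 800 UMIs the expected share was 6.14% ± 4.87 (SD, n = 8) for WT against 1.96% ± 2.66 (SD, n = 4) for Het (exact permutation test, p = 0.121, adjusted p = 0.541). Without thinning the difference was 14.1 percentage points and its raw p was 0.0323 (exact permutation test), unadjusted. The share of the Cdh18 group, which held 9 of the 11 nuclei with Nr4a2, was also lower in Het libraries, and its part in this difference was not tested.

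Myt1l itself, at chr12:29528384-29923213 on the plus strand, was at similar levels in both genotypes. The WT libraries ran from 478 to 2647 CPM with a median of 1446 CPM, and the Het libraries stood at 1874, 714, 1015 and 1931 CPM. Het values lay within the WT range. The log2 fold change (Het over WT) was 0.02 with a standard error (SE) of 0.36 (edgeR adjusted p = 0.992), and over libraries the means were 1402 ± 645 (SD, n = 8) and 1383 ± 613 CPM (SD, n = 4) (exact permutation test, p = 0.990). The counts do not separate transcripts of the frameshift allele from those of the intact allele. Among the groups, Myt1l was highest in the Cdh18 group (2129 CPM) and lowest in the Pdgfra group (347 CPM).

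**Figure D4:**
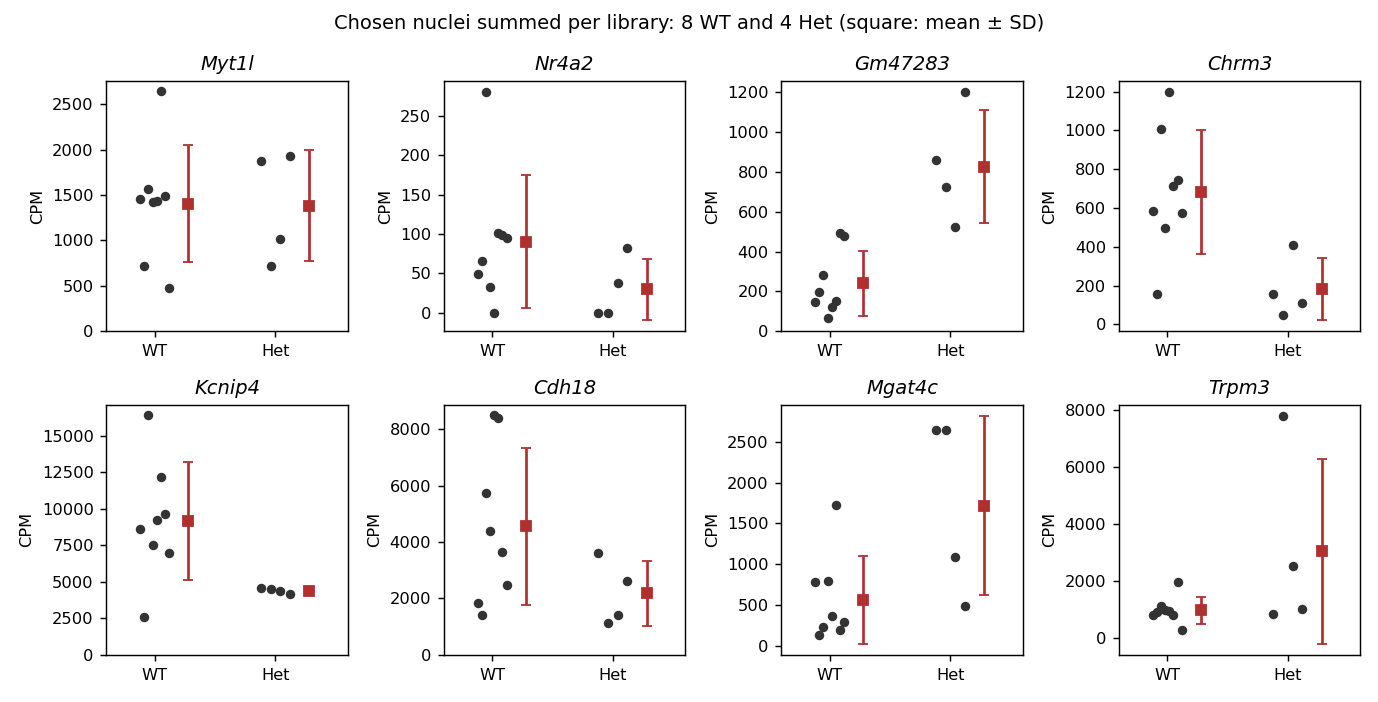
CPM (vertical axes) of 8 genes in the chosen nuclei summed per library, for 8 WT and 4 Het libraries, with points for libraries and squares for the mean with SD. Gm47283, which was named for the smallest p in these same libraries, ran from 66.2 to 495 CPM in WT and from 524 to 1201 CPM in Het.

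To ask which genes differed between genotypes, counts of the chosen nuclei were summed per library and tested with edgeR. None of the 460 genes with enough counts was called (0%, where a call needed an adjusted p under 0.05 with an absolute log2 difference of 0.2 or more). At an unadjusted p under 0.05 there were 23 genes (5% of those tested, the share that this threshold passes when no gene differs), of which 10 had higher and 13 lower levels in Het libraries. DESeq2 called 1 of the same genes. The median SE of a log2 fold change was 0.36, and even estimates of 1.81 (Gm47283) and -1.76 (Chrm3) on the log2 scale were not called at this depth. The genes named next have the smallest p-values among those that kept their sign whichever library was left out. None of them passed the threshold, and 9 had a higher and 11 a lower estimate in Het.

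Gm47283, a protein-coding gene model at chr Y:90784738-90816464 on the plus strand, had the smallest p. Its level was 66.2 to 495 CPM in WT libraries with a median of 175 CPM, and 858, 724, 524 and 1201 CPM in Het libraries. All Het values were above all WT values. The share of genes with such a separation among all 460 tested is not given. Gm47283 was named for the smallest p in these same libraries, so its separation describes it and gives no separate support. Its log2 fold change was 1.81 with an SE of 0.39 (edgeR adjusted p = 0.128, DESeq2 adjusted p = 0.0406), and the edgeR adjusted p was 0.0237 with sex in the design and 0.0303 without WT female 2. It was detected in all 12 libraries, among them the 4 female libraries, 3 WT (153, 495 and 478 CPM) and 1 Het. Its summed count of 150.2 UMIs was not whole, since part of it in Het male 2 (14.2 UMIs) had been divided between gene models. The summed counts of all other libraries were whole. How the counts of a chr Y model in female libraries arose was not tested, so the values are not assigned to this model alone. In other excitatory nuclei its log2 fold change was 1.31 (edgeR adjusted p = 0.252). Pooled levels were higher in Het nuclei of all 4 groups, with no test. They were 247 CPM in WT and 1036 CPM in Het for the Cdh18 group, and 194 and 810 CPM for the Rorb group. The Pdgfra group stood at 281 and 706 CPM, and the Cped1 group at 278 and 869 CPM.

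Among the named genes with lower estimates in Het, 9 of 11 had their highest pooled level in the Cdh18 group by at least 2 times, while 65 of all 234 genes with a negative estimate were at least 2 times higher in that group than in the other chosen nuclei. Chrm3, the M3 muscarinic acetylcholine receptor, ran from 156 to 1196 CPM in WT libraries with a median of 648 CPM, against 158, 51.0, 411 and 109 CPM in Het libraries. The Het values lay below those of all WT libraries except WT male 2, at 156 CPM. Its log2 fold change was -1.76 with an SE of 0.50 (edgeR adjusted p = 0.624). Kcnip4, a calcium-binding subunit of A-type potassium channels, ran from 2611 to 16414 CPM in WT and stood at 4584, 4481, 4372 and 4148 CPM in Het libraries, with a log2 fold change of -0.99 and an SE of 0.32 (edgeR adjusted p = 0.649). WT male 2 was the 1 WT library below the Het values. Cdh18 ran from 1408 to 8492 CPM in WT with a median of 4030 CPM and stood at 3613, 1121, 1397 and 2611 CPM in Het libraries, with a log2 fold change of -0.99 and an SE of 0.45 (edgeR adjusted p = 0.951).

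Lower estimates were found for 8 other genes, with log2 fold changes from -0.65 to -1.46. These were the long noncoding RNA 6530403H02Rik, Etl4, Rgs7 (a regulator of G protein signalling), Tmem178b, Slc8a1 (a sodium-calcium exchanger), Cacna2d3 (a calcium channel subunit), A830018L16Rik and Nrg1 (neuregulin 1). Rgs7 and Tmem178b were the exceptions to the higher level in the Cdh18 group, which was pooled over genotypes. Within WT nuclei Chrm3 stood at 1152 CPM in that group and at 961 CPM in the Cped1 group, and within Het nuclei Slc8a1 stood at 2970 CPM in the Cdh18 group and at 2097 CPM in the Rorb group. Within the Cdh18 group alone, Cdh18 stood at 10121 CPM in 16 WT nuclei and 8939 CPM in 8 Het nuclei, Cacna2d3 at 1529 and 1418 CPM, and Nrg1 at 7642 and 6606 CPM, while Chrm3 stood at 1152 and 333 CPM. Kcnip4 stood at 16545 and 10206 CPM there, 6530403H02Rik at 956 and 443 CPM, Slc8a1 at 4782 and 2970 CPM, Etl4 at 3010 and 2071 CPM, and A830018L16Rik at 1792 and 1463 CPM. All 9 of these genes had lower pooled levels in Het nuclei of the group, to different degrees. They had been named for lower estimates in the same nuclei, so these levels describe them and give no separate support. The values rest on 1 to 4 nuclei per library and were not tested.

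The genes with higher estimates in Het, beside Gm47283, were Trpm3, Mgat4c, Cntn4, mt-Rnr2, Tnr, Slc4a10, Auts2 and Rtn1. Mgat4c, a glycosyltransferase gene, ran from 131 to 1731 CPM in WT and stood at 2642, 2650, 1085 and 491 CPM in Het libraries, with a log2 fold change of 1.65 and an SE of 0.57 (edgeR adjusted p = 0.649). Trpm3, a cation channel, ran from 287 to 1966 CPM in WT, and its Het values of 868, 7798, 2544 and 1037 CPM were led by Het male 2, without which its log2 fold change of 1.70 was 0.54. Both overlapped between genotypes. In the Cped1 group, pooled over libraries and with no test, Trpm3 stood at 1528 CPM in WT and 6418 CPM in Het nuclei, the highest of the 4 groups in each genotype, and Het male 2 alone held 153 Trpm3 UMIs over all its chosen nuclei. Mgat4c stood there at 417 CPM in 9 WT and 4345 CPM in 13 Het nuclei, while the Rorb group was highest in WT, at 1145 CPM. Cntn4, a contactin adhesion molecule, had a log2 fold change of 1.65 with an SE of 0.58 (edgeR adjusted p = 0.649) and was detected in 0 of 9 WT and 4 of 13 Het nuclei of the Cped1 group (2897 CPM in Het), while the Rorb group was highest in WT, at 839 CPM. Its Het values were 1829, 2752, 337 and 709 CPM, and without Het male 2 its log2 fold change was 1.05. Tnr, the matrix protein tenascin R, had a log2 fold change of 0.74 with an SE of 0.31 (edgeR adjusted p = 0.910) and was highest in the Pdgfra group, at 2190 CPM. The mitochondrial ribosomal RNA mt-Rnr2 had a log2 fold change of 1.27 and stood at 1835 and 1833 CPM in Het males 2 and 3, against 316 and 600 CPM in the other Het libraries.

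**Figure D5:**
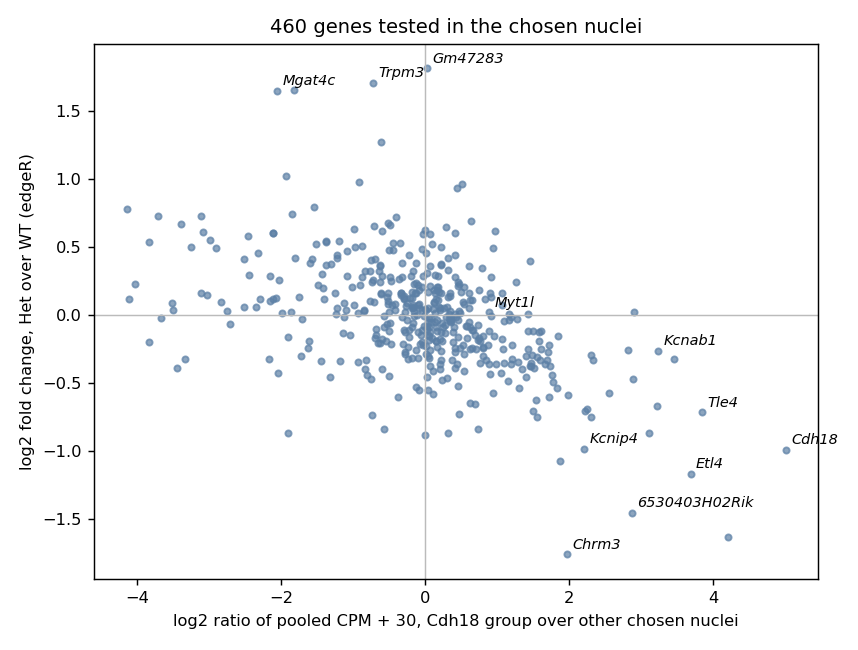
Each of the 460 tested genes by its log2 ratio of pooled CPM plus 30 in the Cdh18 group over the other chosen nuclei (horizontal axis) and its log2 fold change of Het over WT from edgeR (vertical axis). Genes of the Cdh18 group, on the right, lie mostly below 0, as for 65 of the 72 genes with a ratio of at least 2. Both values come from the same nuclei.

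As a description, the estimate for genotype was set against the group in which a gene was found, across all 460 genes. Both values came from the same chosen nuclei, so their relation gives no separate support for a genotype difference. Of 72 genes at least 2 times higher in the Cdh18 group than in the other chosen nuclei, 65 had a negative and 7 a positive estimate, with a median log2 fold change of -0.35. Of 81 genes at least 2 times lower there, 19 had a negative and 62 a positive estimate, with a median of 0.16. The Spearman correlation was -0.47 and Pearson's r was -0.48 across these 460 genes, which share the same nuclei, libraries and counts and are not independent. The Cdh18 group supplied 38.5% of the UMIs of chosen nuclei in WT and 25.9% in Het. This share enters the estimates of its genes, and its part in them was not tested.

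Whether the genotype difference in the chosen nuclei departed from that in other excitatory nuclei was tested with an interaction term over both sets, with the library as a block. Of the 91 chosen nuclei, 51 held at least 2 UMIs of the 5 excitatory genes, so the sets also differed in their kinds of nuclei. None of the 460 genes was called (0%), and 17 had an unadjusted p under 0.05. DESeq2 called 0 and had 21 such genes. The smallest p-values belonged to Mgat4c, Zfp804a and Chrm3. The difference of log2 fold changes was 2.42 with an SE of 0.73 for Mgat4c, 1.29 with an SE of 0.40 for Zfp804a, a zinc finger protein gene, and -1.62 for Chrm3 (edgeR adjusted p = 0.754 for each). Without Het female 1, Mgat4c alone was called (difference 3.24, edgeR adjusted p = 0.0178). In other excitatory nuclei themselves the log2 fold changes were -0.63, -0.50 and -0.33, none of them called. Within the chosen nuclei, pooled Mgat4c stood at 417 CPM in WT and 4345 CPM in Het nuclei of the Cped1 group, with no test.

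Gene lists chosen for this tissue were described by their counts in the same test, in which 226 of 460 genes had a positive estimate and the median log2 fold change was -0.01. No gene of any list was called. Of 20 listed subplate and layer 6b markers, 6 had enough counts, all with negative estimates and a median of -0.35, among them Cdh18 (-0.99), Zfpm2 (-0.38), Inpp4b (-0.37) and Kcnab1 (-0.27). Of 14 deep-layer transcription factors, 7 were tested, 6 with negative and 1 with a positive estimate, with a median of -0.34. They included Tle4 (-0.72), a corepressor of layer 6 neurons, and Nfib (-0.49) and Nfia (-0.34), nuclear factors of cortical and glial development. Since these genes lie on the side of the Cdh18 group, the share of that group moves with their estimates, and its part was not tested. Of 30 glutamate and GABA receptor genes, 13 were tested, 7 with positive and 6 with negative estimates and a median of 0.09, and the smallest p belonged to Grik2 (-0.74), a kainate receptor subunit. Of 26 axon guidance genes, 10 were tested, 8 positive and 2 negative with a median of 0.16, among them Unc5d (1.02), a netrin receptor. Of 19 receptors for neuromodulators and growth factors, 3 were tested, all with negative estimates: Chrm3 (-1.76) and the neurotrophin receptors Ntrk2 (-0.26) and Ntrk3 (-0.25).

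The remaining lists were thinly covered. Of 6 neurexins and neurexophilins, 3 were tested, among them Nxph1 (0.49) and Nrxn3 (0.08). Of 16 complexins and genes of vesicle release, 4 were tested, 2 in each direction with estimates from -0.36 (Unc13b) to 0.05 (Rims1). Of 11 matrix and secreted proteins, Tnr (0.74) and Vcan (-0.25) were tested. Of 11 immature neuron genes, Stmn2 (0.05) was tested alone, and of 9 genes of the MYT1 family and its corepressors Myt1l alone was.

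Markers of other cell types in the summed chosen nuclei varied widely between libraries. The 5 oligodendrocyte-lineage markers together ran from 0 to 971 CPM in WT and from 54.6 to 714 CPM in Het libraries, against 16.1 CPM in other excitatory nuclei. The 7 Cajal-Retzius markers, of which Calb2, Lhx1, Lhx5 and Trp73 were at 0, ran from 0 to 382 CPM in WT and from 150 to 1274 CPM in Het libraries. The 8 upper-layer markers, all detected, ran from 916 to 3346 CPM in WT and from 1121 to 4012 CPM in Het libraries. The 9 GABAergic markers, of which Dlx2, Dlx5 and Slc32a1 were at 0 and which do not include Gad1 and Gad2, ran from 50.9 to 392 CPM in WT (162 ± 102, SD, n = 8) and from 204 to 764 CPM in Het libraries (416 ± 255, SD, n = 4). The part of these markers in the differences was not tested. All 5 microglial markers were at 0.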

How the data were processed

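Single-nucleus RNA was counted for 12 libraries at postnatal day 1. The authors demultiplexed, aligned to mm10 and counted with ScaleRna, called nuclei against ambient RNA with CellFinder, and deposited expected counts (unnormalized UMIs in which some UMIs are divided between genes, 6.74% to 7.05% of entries per library). Seurat 4.3.0 is named in the submitters' processing notes. The way UMIs were divided and the strand setting of the counting are not stated in those sources, so a gene and an antisense or nested model within it, as in Myt1l, Chrm3, Kcnip4, Auts2 and Cdh18, may share reads. No free RNA was subtracted. The design had assumed whole counts, so sums over nuclei were rounded.

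The 126684 barcodes were filtered as stated in the report. An added cutoff of 0.9 on log genes over log UMIs was an alternative. Each barcode was scored for doublets by the simulated pairs near it, and the top 5% of a library were marked but kept. Thinning used the hypergeometric expectation at 800 UMIs. Chosen nuclei were clustered on 1000 variable genes, 8 principal components and 10 neighbours (leidenalg 0.10.2, resolution 1), without the rule genes, and the thresholds for naming groups were set after the groups had been seen.

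Other excitatory nuclei had no Gad1 or Gad2, at least 2 UMIs of 5 excitatory genes, and were not chosen. Sums per library were tested with edgeR 4.0.16 (R 4.3.3; TMM, filterByExpr, quasi-likelihood test, Benjamini-Hochberg adjustment over all genes tested), with DESeq2 1.42.0 as an alternative. Single values were tested by exact two-sided permutation over the 495 assignments of 12 libraries. The tests were checked on simulated counts. Named genes were Myt1l, Nr4a2 and the rule genes, the 20 smallest p-values with the same sign in all 12 fits that left out 1 library, the 3 smallest p-values of the interaction, up to 4 per list, and the 15 highest folds over other excitatory nuclei. The paper drew its P1 samples from 4 litters and describes samples as mostly littermates. Which libraries shared a litter is not in the labels, so p-values measure the spread between these animals only. The rule, the gene lists and the tests were chosen with earlier results of these data known. Depth per library was 15439400 to 40784100 UMIs. Results for some genes are not reported here.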

Additional observations from a re-analysis of the deposited data

Results flagged for a closer look

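In 66 groups of 4 or 8 libraries, the highest or lowest library was set against the range of its group. Chance alone flags about 1 group in 20, and 6 values stood apart, all of them CPM of single genes in chosen nuclei. Nr4a2 was at 280 CPM in WT male 3, above the next WT library at 102 CPM. In WT female 1, Mgat4c was at 1731 CPM, next to 795 CPM, Slc4a10 at 1120 CPM, next to 426 CPM, and mt-Rnr2 at 967 CPM, next to 534 CPM. This library held 5 chosen nuclei. The long noncoding RNA 6530403H02Rik was at 51.0 CPM in Het male 2, below the next Het library at 181 CPM. Cacna2d3 was at 752 CPM in Het male 1, above the next Het library at 411 CPM.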

How the results depend on the processing

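Numbers are Het minus WT unless stated. The share of chosen nuclei (0.0161 percentage points) changed sign with a rule of at least 1 UMI (-0.0413) or at least 3 UMIs (-0.00937), with only the Cdh18 group (-0.0105) and with the 354 nuclei of 3 of 5 other markers (-0.0780), the last of which, with the groups, were chosen after seeing the data. It kept its sign in the other settings, and no setting brought its p under 0.05. With a replicate block, taking differences within the 4 pairs of the same sex and number, it was 0.0200 (exact sign permutation, p = 0.375, the smallest possible being 0.125). Leaving out 1 library gave 0.00454 to 0.0251 for it, 0.0121 to 0.0804 for the share of chosen and other excitatory nuclei together, 0.00219 to 0.00607 for the thinned share and -897 to -365 UMIs for the median depth.

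The Nr4a2 share was -4.18 percentage points with thinning and -14.1 without it (raw exact permutation p = 0.0323), and -5.40 to -2.92 with 1 library left out, where leaving out Het female 1 gave a raw exact permutation p of 0.0485. Group shares with 1 library left out were -22.8 to -13.2 points for the Cdh18 group, -4.90 to 11.8 for the Rorb group, -6.08 to 4.48 for the Pdgfra group and 10.4 to 24.3 for the Cped1 group. The Rorb group changed sign without Het male 1 (-4.90) or Het female 1 (-2.12). The Pdgfra group (-0.243) changed sign without WT male 1 (3.65), WT males 3 and 4 or WT female 3 (0.0794 each), WT male 5 (1.27), Het male 1 (1.70) or Het female 1 (4.48). The clustering resolutions 0.5 and 1.5 changed no sign.

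edgeR's 0 called genes became 1 (Gm47283) with DESeq2, with sex in the design, or without WT female 2, the others of the 12 left-out fits giving 0. It became 7 of 14309 without a filter on low counts, all higher in Het (Ranbp3l, Gm47283, Mgat4c, Slc7a11, Trpm3, Reln and Cntn4). In the 354 nuclei it became 21 of 2289. It stayed 0 with other size factors, males only, the replicate block (9 genes at an unadjusted p under 0.05), nuclei with a cortical transcription factor UMI, and doublets left out. The 0 genes of the interaction became 3 without the filter (Mgat4c, Ranbp3l and Slc7a11, all with positive differences) and 1 (Mgat4c) without Het female 1, and 0 to 1 over the left-out fits. The fits with at least 3 UMIs could not be made because several libraries then held no nuclei. Myt1l (0.02) ranged from -0.18 to 0.18 with 1 library left out and changed sign with males only (-0.0664), the replicate block (-0.14), a cortical transcription factor UMI (-0.14), and without WT male 2 (-0.08), WT female 3 (-0.09), Het male 1 (-0.12) or Het female 1 (-0.18), with no adjusted p under 0.05. The cause of these changes was not tested.

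Same-numbered libraries did not deviate together in the chosen nuclei (correlations -0.36, 0.02, -0.14 and 0.04), so the numbers were not taken as pairs. The 3 to 12 chosen nuclei per library and a median SE of 0.36 limit what these sums can show.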

Other observations

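A second choice by layer 6b markers, made after seeing the data, took the 354 nuclei with at least 3 of Nr4a2, Ccn2, Lpar1, Kcnab1 and Tmem163. They made up 0.377% ± 0.111 (SD, n = 8) of filtered nuclei in WT and 0.299% ± 0.0549 (SD, n = 4) for Het (exact permutation test, p = 0.190, adjusted p = 0.541), with all 4 Het libraries below the WT mean. Cdh18, which neither choice used, stood at 7748 CPM in their pooled counts, against 3401 CPM in the chosen nuclei.

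In these 354 nuclei edgeR called 21 of 2289 genes (0.917%), 9 higher and 12 lower in Het, and DESeq2 called 24. Leaving out 1 library gave 8 to 24 calls, the fewest without Het male 3, with 12 calls without WT male 4 and 14 without Het male 2. The genes Mgat4c, Rora, Sgcz, Tmem132d and Zfp462 were called in all 12 of these fits. Mgat4c was lower in Het, at 844, 1145, 520 and 748 CPM against 1328 to 2464 CPM in WT libraries, with a log2 fold change of -1.18 and an SE of 0.18 (edgeR adjusted p = 0.00124). In the 91 chosen nuclei its estimate had the opposite sign (1.65). Sgcz, a sarcoglycan gene, was lower as well, at 793 ± 183 CPM (SD, n = 4) against 1780 ± 480 CPM (SD, n = 8), and Tmem132d was at 945 ± 63.4 CPM (SD, n = 4) against 1578 ± 247 CPM (SD, n = 8). Kcnip4 (-0.43, edgeR adjusted p = 0.0273) and Etl4 (-0.64, edgeR adjusted p = 0.0333) were called lower here and had lower estimates in the chosen nuclei too, and Etl4 kept its call in 5 of the 12 fits. Estimates in the chosen nuclei had the opposite sign also for the called genes Sgcz (0.27), Cacna1a (0.13), Tafa2 (-0.39) and Il1rapl1 (-0.09). They had the same sign for Rora, Tmem132d, Gm45341, Tafa1, Lrp1b, Neto1 and Sox6.

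Rora, a nuclear receptor, was higher in Het, at 408, 471, 598 and 642 CPM against 70.1 to 317 CPM in WT libraries, with a log2 fold change of 1.52 and an SE of 0.24 (edgeR adjusted p = 0.00124). Zfp462, a zinc finger protein gene, was at 219 ± 35.4 CPM (SD, n = 4) against 99.2 ± 27.9 CPM (SD, n = 8). Marker lists of other cells went both ways. The 7 astroglial markers summed to 251 ± 137 CPM (SD, n = 4) in Het and 81.5 ± 95.01 CPM (SD, n = 8) in WT libraries. The 8 upper-layer markers summed to 2223 ± 200 (SD, n = 4) and 1612 ± 377 CPM (SD, n = 8). The 8 diencephalic markers summed to 127 ± 56.6 CPM (SD, n = 4) and 55.4 ± 35.6 CPM (SD, n = 8). The 8 layer 6 corticothalamic markers were lower in Het, at 5759 ± 721 CPM (SD, n = 4) against 6844 ± 915 CPM (SD, n = 8) in WT libraries. Also lower in Het were the 7 Cajal-Retzius markers, at 126 ± 44.8 CPM (SD, n = 4) against 370 ± 519 CPM (SD, n = 8). The 9 GABAergic markers stood at 119 ± 39.2 CPM (SD, n = 4) against 143 ± 104 CPM (SD, n = 8). The 5 microglial markers stood at 12.6 ± 9.95 CPM (SD, n = 4) against 19.0 ± 21.3 CPM (SD, n = 8). The part of these markers in the differences was not tested.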
